A study of Homo sapiens with 4 samples.

Results

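Chromatin accessibility was examined at the promoters of 49 genes that encode chromatin regulators, grouped into 11 classes by the mark or complex they act on. The classes were Polycomb repressive complex 2 (PRC2), PRC1 with the PR-DUB deubiquitinase, H3K27 demethylases, H3K4 methylation, H3K36 methylation, DNA methylation, histone deacetylases, corepressors of the KRAB domain, histone acetylases, nucleosome remodellers, and CTCF with cohesin. A member was any consensus ATAC-seq peak within 1 kb of an annotated transcription start of such a gene. Of the 139872 peaks in the count table, 149 met this rule, at 44 of the 49 genes. No consensus peak within 1 kb was found in the table used here for RING1, CBX2, TET1, KAT2A and SMC1A, and these 5 genes were not analysed further. Of the 149 peaks, 119 passed the filter on low counts and were tested, and every one of the 44 genes kept at least 1 tested peak.

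ATAC-seq inserts sequencing adaptors into open DNA with a transposase, so the read count of a peak measures how accessible that stretch is. The cells were SEM, an established B cell precursor leukemia line with a rearranged MLL gene, grown in standard medium. All 4 libraries came from SEM cells that carried dCas9-KRAB-BSD, a Cas9 without nuclease activity fused to the KRAB repressor domain. The 2 sgFLT3-DE-1 libraries expressed a guide aimed at an enhancer of FLT3 where HOXA9 binds, and the 2 sgNT libraries expressed a control guide with no target. One engineered line and one active guide were profiled, the labels do not say whether replicates were separate cultures, and the p-values reflect the variation between libraries alone, possibly only a technical one. In bulk cells, a peak open in fewer cells and a peak less open in every cell cannot be told apart.

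Chromatin regulators set which genes a cell can use. PRC2 methylates H3K27 and PRC1 ubiquitinates H2A, both linked to silencing, whereas H3K4 and H3K36 methyltransferases and acetylases work at active genes. DNMT enzymes methylate cytosines and TET enzymes oxidise that mark. The KRAB domain of dCas9-KRAB acts through several of the proteins studied here: it binds TRIM28, which brings the H3K9 methyltransferase SETDB1, the heterochromatin protein HP1 alpha encoded by CBX5, and the deacetylase and remodelling activities of HDAC1 and CHD4. The comparison asked how open these genes' own promoters were in SEM cells, and whether the active guide went with a change there beyond that of promoters of like GC content.

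Sequence from 6 main peaks is shown, the main peak of a gene being its peak of highest mean CPM (read counts scaled to library size). CBX8, KDM5A and EZH1 held the lower main peaks of smallest p, KMT2D held the main peak with the highest estimate, ARID2 had the most accessible main peak per length, and CTCF stands for the architectural genes. Each stretch of 150 bases lies inside the peak and outside every annotated exon, is from GRCh37, and is written 5′ to 3′ on the strand of the gene. Capitals mark letters of a searched transcription factor motif.
CBX8, chr17:77770877-77771026, minus strand: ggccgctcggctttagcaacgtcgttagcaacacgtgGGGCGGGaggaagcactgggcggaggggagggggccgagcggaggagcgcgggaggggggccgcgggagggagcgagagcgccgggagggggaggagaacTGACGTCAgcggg
KDM5A, chr12:498694-498843, minus strand: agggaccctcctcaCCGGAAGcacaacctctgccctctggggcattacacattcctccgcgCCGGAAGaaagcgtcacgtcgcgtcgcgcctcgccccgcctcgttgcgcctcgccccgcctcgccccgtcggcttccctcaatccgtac
EZH1, chr17:40896879-40897028, minus strand: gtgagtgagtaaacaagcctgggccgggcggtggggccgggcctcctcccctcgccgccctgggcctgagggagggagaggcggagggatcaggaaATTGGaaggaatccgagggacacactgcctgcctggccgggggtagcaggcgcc
KMT2D, chr12:49449903-49450052, minus strand: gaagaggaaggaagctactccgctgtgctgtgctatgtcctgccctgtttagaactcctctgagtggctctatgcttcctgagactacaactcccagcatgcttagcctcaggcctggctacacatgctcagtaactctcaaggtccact
ARID2, chr12:46122809-46122958, plus strand: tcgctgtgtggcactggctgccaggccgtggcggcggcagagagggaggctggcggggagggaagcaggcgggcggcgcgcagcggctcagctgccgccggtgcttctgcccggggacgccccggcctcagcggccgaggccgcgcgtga
CTCF, chr16:67596220-67596369, plus strand: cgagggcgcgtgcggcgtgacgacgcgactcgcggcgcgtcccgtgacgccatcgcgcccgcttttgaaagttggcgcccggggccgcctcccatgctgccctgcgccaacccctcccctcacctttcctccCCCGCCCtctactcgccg
The CBX8 stretch held the SP/KLF letters GGGCGGG and the CREB/ATF letters TGACGTCA. The KDM5A stretch held the ETS letters CCGGAAG at 2 places, the EZH1 stretch the NFY letters CCAAT read on the other strand, and the CTCF stretch GGGCGGG read on the other strand. The KMT2D and ARID2 stretches held none of the 10 motifs in the exact letters searched. The KMT2D stretch did hold letters that differ from the searched ZNF143 letters at only 1 base, and such a variant was not counted. CpG pairs numbered 18 in CBX8, 20 in KDM5A, 9 in EZH1, 20 in ARID2 and 24 in CTCF, against 1 in KMT2D. The KMT2D stretch was 52.7% GC and lies in an intron, not over a start.

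Library totals ran from 2683477 to 4831164 counts, and both guide libraries (3670758 and 4831164) were deeper than both controls. The peak over the guide site, chromosome 13 from 28842815 to 28843351, was lower in both sgFLT3-DE-1 libraries (60.1 and 68.1 CPM) than in both sgNT libraries (115 and 128 CPM), which goes with the labels. By edgeR's quasi-likelihood test its log2 fold change was -0.92 (SE 0.263) with a Benjamini-Hochberg adjusted p of 1.00 over 82558 tested peaks. Of 10 B precursor marker genes, 8 had a peak at a start (CD79A and BLNK had none), with a summed level of 126 to 173 CPM over the libraries. The summed level was 11.9 to 18.5 CPM for 2 of 6 T cell markers, 4.21 to 8.26 CPM for 2 of 6 myeloid markers and 27.8 to 38.4 CPM for 4 of 6 fibroblast and epithelial markers. Erythroid markers, 3 of 6 with a peak, summed to 534 and 230 CPM with sgFLT3-DE-1 and 65.7 and 52.3 CPM with sgNT, with none at ALAS2, KLF1 or AHSP. This difference moved with the guide, and its part in the values below was not tested.

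In the sgNT libraries the main peaks of the 44 genes had a median of 49.8 CPM per kb of peak, against 43.6 CPM per kb over 13256 other protein-coding genes with a peak, and 26 of 44 lay above the latter. Main peaks were also wider, with a median of 435.5 bases against 381, and richer in GC, with 71.5% against 66.3%. In all, 3 or more peaks at annotated starts were found for 29 of 44 genes (65.9%), against 27.2% of the other coding genes. The genes with the most peaks were ARID1B (10), KAT6A (7), CHD4 (7), EZH2 (6) and KMT2C (6). Levels were compared per length and as a description, since the depth of the 2 control libraries limits each value.

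CTCF and cohesin genes formed the class with the highest median among the members, at 85.0 CPM per kb. CTCF binds DNA at chromatin loop anchors, and RAD21, SMC3 and STAG2 encode parts of the cohesin ring that extrudes the loops. Their main peaks lay close together, from 79.6 CPM per kb at RAD21 to 95.9 at STAG2. STAG2 gave 99.8 and 92.0 CPM per kb in the sgNT libraries and RAD21 gave 90.6 and 68.6, so the ranges of these 2 genes did not overlap although the values of RAD21 spread widely.

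The H3K27 demethylases followed with a median of 75.8 CPM per kb over 2 genes, KDM6A at 108 and KDM6B at 43.1. KDM6A and KDM6B remove the mark that PRC2 places. KDM6A gave 125 and 92.0 CPM per kb in the sgNT libraries, and KDM6B gave 41.6 and 44.7, so the genes were apart in every control library. Main peak widths differed as well, from 899 bases at KDM6A to 213 at KDM6B.

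Deacetylases had a class median of 63.1 CPM per kb, led by HDAC2 at 128 and with HDAC1 lowest at 55.5. The corepressors of KRAB had a median of 54.7, with CBX5 at 104 and SETDB1 at 50.3. The 3 deacetylase genes are catalytic subunits of corepressor complexes, and all 6 genes of both classes were above the median of the other coding genes. The main peak of CBX5 and 2 of its other 4 peaks also lie within 1 kb of a start of HNRNPA1, which encodes an RNA-binding protein, and the counts of these 3 peaks cannot be divided between the genes.

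Within PRC2 the levels ran from 85.4 CPM per kb at EED, which binds the methylated histone tail, to 20.9 at SUZ12, a scaffold subunit. The catalytic subunits EZH2 and EZH1 differed more than their replicates. The sgNT libraries gave 79.7 ± 20.8 CPM per kb for EZH2 and 25.8 ± 0.744 for EZH1 (SD, n = 2). PRC1 and PR-DUB genes had a median of 57.1, from 77.0 at ASXL1, a PR-DUB subunit, to 39.7 at BMI1, a PRC1 subunit.

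The DNA methylation genes had a median of 48.5 CPM per kb, with the dioxygenase gene TET2 at 89.7 and the maintenance methyltransferase gene DNMT1 at 27.3. H3K4 genes were at 40.4, from KMT2B at 59.3 to SETD1A at 30.3, both methyltransferases. H3K36 genes were at 41.2, from SETD2 at 49.8 to NSD1 at 21.9. Acetylases were at 42.8, from KAT6A at 46.4 to CREBBP at 23.3.

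Remodellers had the lowest class median, 38.2 CPM per kb, and the widest span. ARID2, a subunit of the PBAF form of SWI/SNF, had the highest main peak of all 44 genes at 138 CPM per kb, with 141 and 135 in the sgNT libraries. SMARCB1, a core subunit of the same family of complexes, lay at 29.4. The narrowest main peak of any member was at SMC3 (179 bases) and the widest at RAD21 (944 bases).

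**Figure D1:**
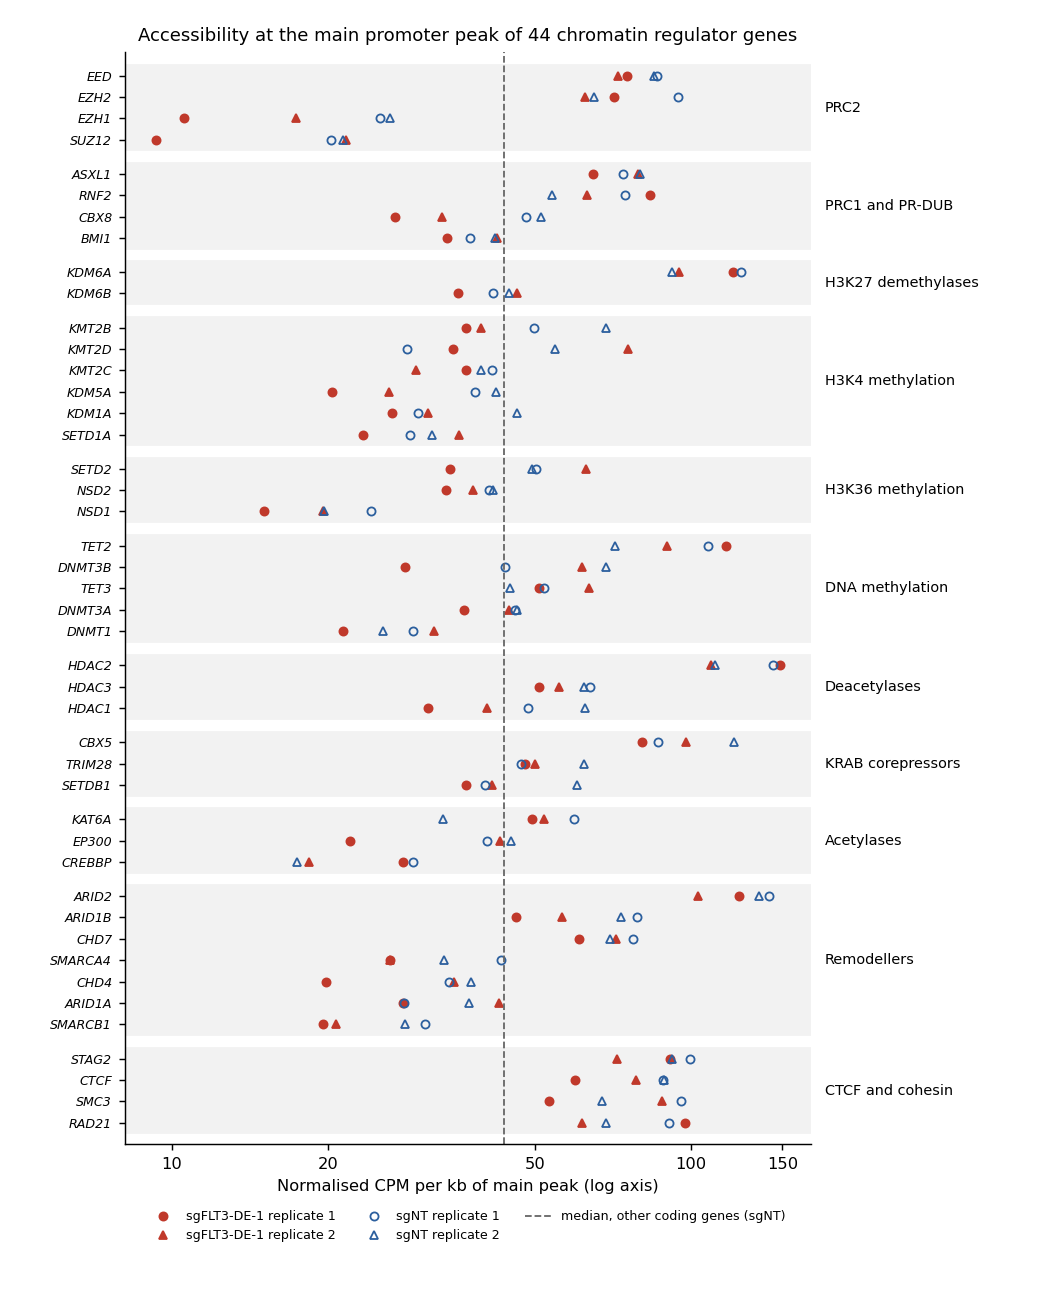
Normalised CPM per kb of the main peak (horizontal log axis) at 44 chromatin regulator genes (rows, grouped by class) in the 2 sgFLT3-DE-1 libraries (filled red) and the 2 sgNT libraries (open blue), with circles for replicate 1 and triangles for replicate 2. The dashed line is the sgNT median of other coding genes, 43.6, and all CTCF and cohesin points lie to its right.

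The plot of levels by gene also shows how the replicates spread. For KAT6A the sgNT values were 59.5 and 33.3 CPM per kb and enclosed both sgFLT3-DE-1 values (49.4 and 52.1). For KMT2D, an H3K4 methyltransferase gene, replicate 2 was above replicate 1 in both groups.

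No member peak passed a false discovery rate of 0.05 in the comparison of sgFLT3-DE-1 with sgNT, where 0.00242% of all tested peaks passed. DESeq2 and limma-voom also called no member peak. By edgeR's quasi-likelihood test, 11 of 119 members had an unadjusted p under 0.05 with a lower estimate and 0 with a higher one, against 2.47% and 0.331% of tested promoter peaks (all peaks within 1 kb of a coding start) and 1.12% and 0.792% of all tested peaks. Estimates below 0 were found at 95 of 119 member peaks, against 62.2% of tested promoter peaks and 48.9% of all tested peaks. The median log2 fold change was -0.19, with quartiles of -0.38 and -0.02, against -0.09 over tested promoter peaks and 0.01 over all tested peaks. Both sgFLT3-DE-1 libraries lay below both sgNT libraries at 40 member peaks, 33.6%, against 22.7% of promoter peaks and 14.2% of all tested peaks. The opposite held at 4 member peaks, in ASXL1, DNMT3A, DNMT3B and RAD21, against 7.85% of promoter peaks and 13.4% of all tested peaks.

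This median depended on 1 library. Against the sgNT libraries, sgFLT3-DE-1 replicate 1 had a median log2 ratio over the members of -0.31 and -0.36, and replicate 2 had -0.10 and -0.10. Without sgFLT3-DE-1 replicate 1 the median over 129 tested members was -0.05, with 74 below 0, and the promoter median was -0.07, so that members were no longer lower than promoters in general. Without sgFLT3-DE-1 replicate 2 the median was -0.36 against -0.19 for promoters. Without sgNT replicate 1 or 2 it was -0.21 and -0.20. Each of these fits set its own filter on low counts. Over the peaks of the main test, as used for the classes below, the medians were -0.05 and -0.33 without sgFLT3-DE-1 replicate 1 or 2. They were -0.25 and -0.22 without sgNT replicate 1 or 2.

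Counts were also summed over all member peaks. Their share of all counts was 0.167% (95% Wilson interval 0.163 to 0.171) and 0.188% (0.184 to 0.191) in the sgFLT3-DE-1 libraries, and 0.202% (0.198 to 0.207) and 0.198% (0.193 to 0.203) in the sgNT libraries. The intervals cover counting error only. The group means were 0.177% ± 0.0148 and 0.200% ± 0.00310 (SD, n = 2), and the exact two-sided permutation p was 0.333, the smallest this design can give. Promoter peaks in general also took a lower share of all counts in the guide libraries (35.8% and 36.5%) than in the controls (38.7% and 38.3%). As a share of promoter counts, the members took 0.466% (replicate 1) and 0.514% (replicate 2) in the guide libraries and 0.523% and 0.517% in the controls. Replicate 2 of the guide nearly reached the control values.

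**Figure D2:**
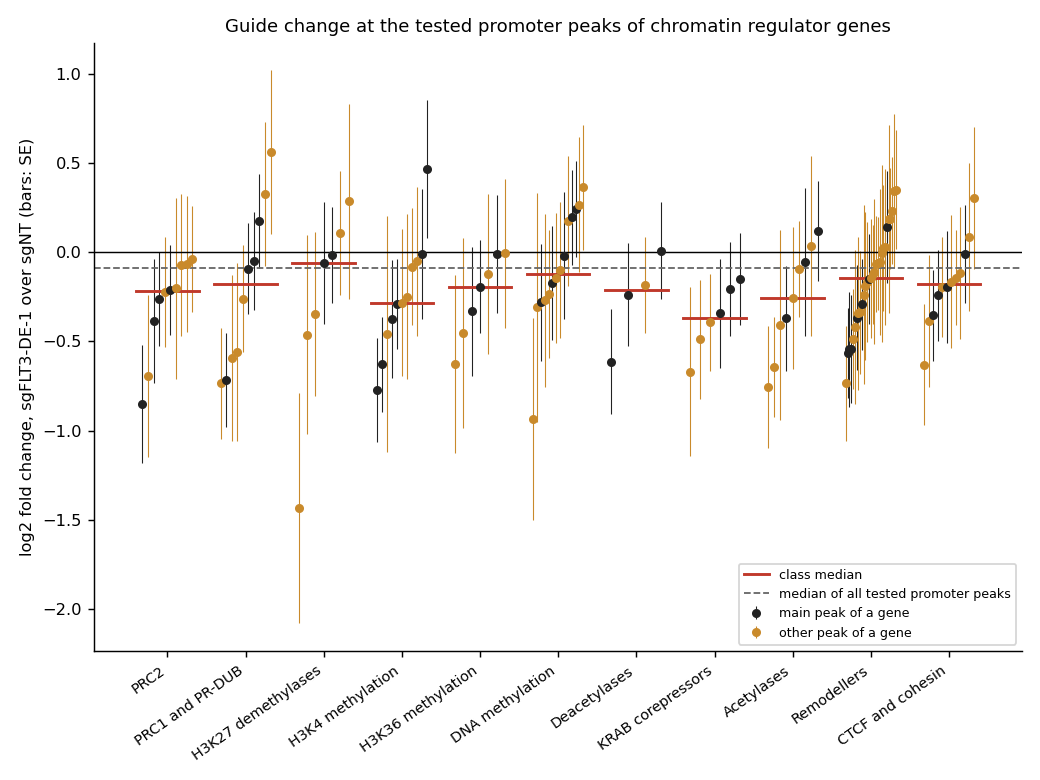
Log2 fold change of sgFLT3-DE-1 over sgNT (vertical axis, bars SE) at the 119 tested member peaks by class, with main peaks in black, other peaks of a gene in ochre, red lines at class medians and a dashed line at the promoter median of -0.09. With all 4 libraries the class medians lie below 0, from -0.06 for H3K27 demethylases to -0.37 for KRAB corepressors, but without sgFLT3-DE-1 replicate 1 those of H3K27 demethylases, DNA methylation and remodellers are above 0.

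The plot of fold changes by class shows medians over the peaks of 2 to 7 genes, and several peaks of a class share a gene. Differences between classes were not tested. Single peaks spread from -1.44 to 0.56. Since sgFLT3-DE-1 replicate 1 decided several of the class medians, each is given below with its median without that library.

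PRC2 peaks were lower in the estimate at 10 of 10 tested peaks, with a median of -0.22. Without sgFLT3-DE-1 replicate 1 the median was also -0.22 but 6 of 10 were below 0, and without sgFLT3-DE-1 replicate 2 and sgNT replicate 2 the medians were -0.41 and -0.33. EZH1, which encodes the other H3K27 methyltransferase of the complex, had 5.90 and 9.67 CPM with sgFLT3-DE-1 and 14.1 and 14.6 CPM with sgNT at its main peak. The groups did not overlap, the log2 fold change was -0.85 (SE 0.329) and the unadjusted p from edgeR was 0.0152. EZH2 had 202 and 248 counts with the guide and 247 and 142 counts without (means of 53.3 and 63.7 CPM), a log2 fold change of -0.26 (SE 0.262). Its groups overlapped, and the gap between the sgNT libraries was wider than that between the group means.

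In PRC1 and PR-DUB, 7 of 10 peaks had estimates below 0 and the median was -0.18. Without sgFLT3-DE-1 replicate 1 it was -0.16, with 6 of 10 below 0. CBX8, a reader of methylated H3K27 in PRC1, had a single peak, from 77770700 to 77771282 on chromosome 17, with 56 and 96 counts in the sgFLT3-DE-1 libraries and 92 and 82 in the sgNT libraries. Scaled to library size these were 15.7 and 19.3 CPM against 28.1 and 30.0 CPM, with no overlap. Its p was the smallest of any member (unadjusted p = 0.0109 by edgeR, log2 fold change -0.72, SE 0.263). At the second BMI1 start, values were 9.27 and 9.87 CPM against 18.9 and 12.8 CPM, a log2 fold change of -0.74 (SE 0.311), while the main BMI1 peak gave -0.05. ASXL1 held the highest estimate of any member, 0.56 (SE 0.459), at a minor peak of 5.06 and 5.24 CPM against 3.97 and 2.93 CPM, and its main peak gave -0.09. Peaks of this gene thus differed in sign.

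At the H3K27 demethylases 5 of 7 estimates were below 0, with a median of -0.06. The direction depended on 1 library, since the median was 0.10 without sgFLT3-DE-1 replicate 1, -0.27 without sgFLT3-DE-1 replicate 2, -0.36 without sgNT replicate 1 and -0.03 without sgNT replicate 2. The lowest estimate of any member, -1.44 (SE 0.645), came from a minor KDM6B peak of only 4 and 8 counts with sgFLT3-DE-1 against 12 and 11 counts with sgNT. The main peak of KDM6B gave -0.06 and that of KDM6A -0.02.

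H3K4 genes had estimates below 0 at 10 of 11 peaks, with a median of -0.28. The median was -0.04 with 7 of 11 below 0 without sgFLT3-DE-1 replicate 1, and -0.09 with 7 of 11 without sgNT replicate 2. It was -0.50 without sgFLT3-DE-1 replicate 2 and -0.59 without sgNT replicate 1. KDM5A, which encodes an H3K4 demethylase, had 9.55 and 12.3 CPM with sgFLT3-DE-1 and 18.0 and 19.8 CPM with sgNT, without overlap. The log2 fold change was -0.77 (SE 0.293), unadjusted p = 0.0132 by edgeR. This peak, from 498443 to 498911 on chromosome 12, also lies within 1 kb of a start of CCDC77, and the counts cannot be divided between these genes. KMT2B, an H3K4 methyltransferase gene, had 18.3 and 19.5 CPM against 24.7 and 34.0 CPM, a log2 fold change of -0.63 (SE 0.266). KMT2D was the exception at its main peak, an intronic one. This peak had 6.74 and 14.7 CPM against 5.50 and 10.6 CPM and a log2 fold change of 0.47 (SE 0.386). Its groups overlapped, and without sgFLT3-DE-1 replicate 2 the estimate was -0.23. A smaller KMT2D peak, over the annotated start at 49454577, gave -0.05 (SE 0.418).

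The H3K36 class had estimates below 0 at 7 of 7 peaks, with a median of -0.19. Without sgFLT3-DE-1 replicate 1, 4 of 7 were below 0 and the median was -0.12, and without sgFLT3-DE-1 replicate 2 it was -0.55. Main peaks gave -0.33 at NSD1, -0.19 at NSD2 and -0.01 at SETD2, which encodes the enzyme of H3K36 trimethylation. At SETD2 the replicates of the guide were 34.4 and 62.9 CPM per kb, and both sgNT values (50.3 and 49.4) lay between them.

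DNA methylation genes were the most mixed, with 9 of 14 estimates below 0 and a median of -0.12. The median was 0.10 with 6 of 14 below 0 without sgFLT3-DE-1 replicate 1, -0.04 without sgFLT3-DE-1 replicate 2, -0.06 without sgNT replicate 1 and -0.02 without sgNT replicate 2. TET3 had 19.9 and 25.0 CPM with sgFLT3-DE-1 and 20.5 and 17.6 CPM with sgNT, a log2 fold change of 0.24 (SE 0.270) with overlapping groups. DNMT3B, a de novo methyltransferase gene, had 8.71 and 10.1 CPM against 7.33 and 7.32 CPM, without overlap, at a minor peak (0.36, SE 0.350). This peak covers an annotated start and lies at starts of protein-coding transcripts. The DNMT3B main peak by CPM lies further along the gene, only at starts of other transcripts, and gave -0.28. The main peaks of DNMT1 and DNMT3A gave -0.02 and -0.17.

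The genes whose products act with KRAB had estimates below 0 at their tested peaks, none of which passed. TRIM28 had 26.1 and 27.4 CPM with sgFLT3-DE-1 and 25.7 and 34.0 CPM with sgNT, a log2 fold change of -0.15 (SE 0.259), and sgNT replicate 1 lay below both guide libraries. SETDB1 had 11.0 and 12.3 CPM against 11.9 and 17.9 CPM, a log2 fold change of -0.34 (SE 0.308). CBX5 had 23.3 and 28.4 CPM against 25.1 and 35.1 CPM, a log2 fold change of -0.21 (SE 0.264). In all 3 genes the groups overlapped at the main peak. The class had estimates below 0 at 6 of 6 peaks and a median of -0.37, but 4 of these peaks belong to CBX5, most of them shared with HNRNPA1. Without sgNT replicate 2 the class median over the same peaks was -0.01, with 3 of 6 below 0. Without sgFLT3-DE-1 replicate 1 it was -0.19. The smaller peaks of TRIM28 (9 and 15 counts with the guide against 7 and 4) and of SETDB1 (8 and 20 counts against 5 and 2) were under the filter and not tested, and in both the guide libraries had the higher counts.

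Among the deacetylases, 3 of 4 estimates were below 0, with a median of -0.21. It was -0.26 with 4 of 4 below 0 without sgFLT3-DE-1 replicate 1, and -0.13 without sgNT replicate 1. HDAC1 had 10.4 and 13.5 CPM with sgFLT3-DE-1 and 16.2 and 20.9 CPM with sgNT, without overlap, for a log2 fold change of -0.61 (SE 0.294). HDAC2, its close paralog, had 108 and 79.4 CPM against 104 and 80.5 CPM at its main peak, a log2 fold change of 0.01 (SE 0.270). The difference between the paralogs was not tested.

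Acetylase genes had 7 of 9 estimates below 0 and a median of -0.26. It was -0.16 without sgFLT3-DE-1 replicate 1, -0.12 without sgNT replicate 1 and -0.60 without sgFLT3-DE-1 replicate 2. The minor EP300 peak nearest its start had 6.74 and 6.65 CPM with sgFLT3-DE-1 and 11.6 and 11.0 CPM with sgNT, with close replicates in both groups, for a log2 fold change of -0.75 (SE 0.341). A microRNA gene, MIR1281, lies at the same peak. At KAT6A, a minor peak gave -0.64 (SE 0.280) from 14.9 and 13.9 CPM against 26.0 and 18.7 CPM, and the main peak gave 0.12. CREBBP gave -0.05 at its main peak.

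Remodellers supplied 29 of the tested peaks, of which 21 had estimates below 0, with a median of -0.15. The direction depended on 1 library, since without sgFLT3-DE-1 replicate 1 the median was 0.03 with 13 of 29 below 0. Without sgFLT3-DE-1 replicate 2 it was -0.34 and without sgNT replicate 1 it was -0.27. ARID1B, a SWI/SNF subunit gene with starts spread along its locus, had all of its 10 peaks tested, with estimates from -0.57 to 0.35. Its main peak, intronic and from 157342518 to 157343060 on chromosome 6, had 25.0 and 30.6 CPM with sgFLT3-DE-1 and 42.8 and 39.9 CPM with sgNT (-0.57, SE 0.253). An intronic peak at an earlier start had 9.83 and 13.1 CPM against 7.64 and 10.6 CPM (0.35, SE 0.334). The groups were apart at the former and overlapped at the latter. ARID2 gave -0.29 at its main peak and -0.74 (SE 0.322) at a minor one, where values were 7.02 and 9.67 CPM against 15.3 and 12.8 CPM. CHD4, the ATPase of the NuRD complex, gave -0.37 (SE 0.295) at its main peak.

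CTCF and cohesin genes, the class of highest median level among the members, had estimates below 0 at 10 of 12 peaks and a median of -0.18. It was -0.14 with 9 of 12 below 0 without sgFLT3-DE-1 replicate 1, and -0.04 with 6 of 12 without sgNT replicate 1. Without sgNT replicate 2 it was -0.37. CTCF had 39.0 and 51.2 CPM with sgFLT3-DE-1 and 57.7 and 57.8 CPM with sgNT, a log2 fold change of -0.35 (SE 0.255). The groups did not overlap, and the spread lay in the guide libraries, since the sgNT values were almost equal. STAG2 gave -0.24, SMC3 -0.20 and RAD21 -0.01 at the main peak.

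GC content moved with the fold change at promoters in general, so the members were read against promoters of like GC. Over tested promoter peaks the loess curve of log2 fold change on peak GC fell with rising GC, and in bands of GC content the median of other promoters went from 0.03 below 50% GC to -0.17 above 80%. Member peaks had a median GC of 69.6%, against 64.9% for other promoters. Minus the curve, the member median was -0.08, with 71 of 119 peaks below 0. In a refit with each library corrected for GC, 73 of 119 members had estimates below 0, against 50.5% of tested promoter peaks, and the medians were -0.08 and -0.0031.

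**Figure D3:**
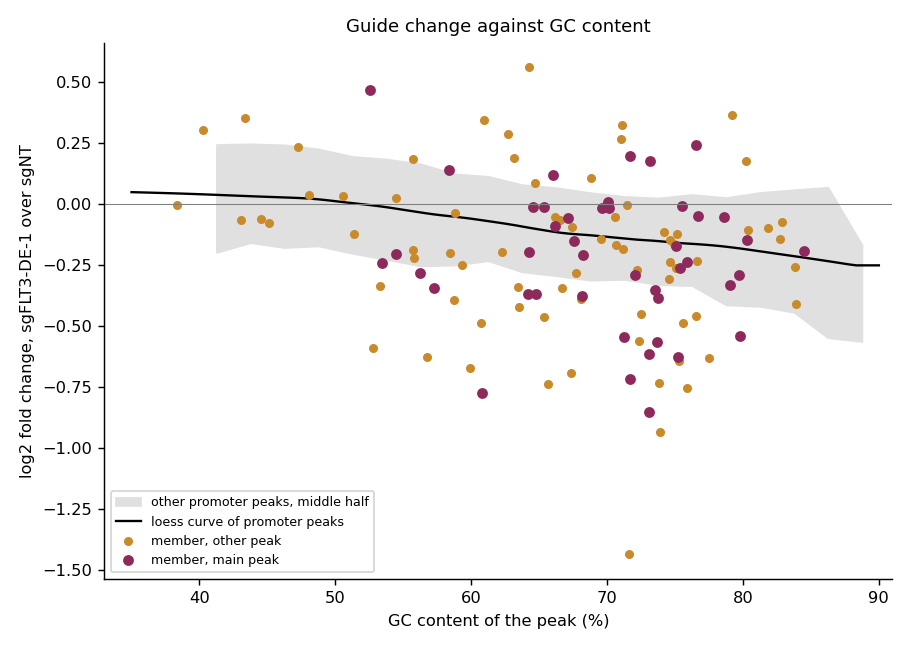
Log2 fold change of sgFLT3-DE-1 over sgNT (vertical axis) against GC content of the peak in percent (horizontal axis) for the 119 tested members, with main peaks in purple and other peaks in ochre, the loess curve of all tested promoter peaks in black and the range between the quartiles of other promoter peaks in grey. The curve falls from above 0 at low GC to -0.25 at the highest, and 71 members lie below it.

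By GC band, the plot of fold change against GC showed members below other promoters at 50 to 60% GC (median -0.21 over 20 peaks against -0.03) and at 70 to 75% GC (-0.27 over 29 peaks against -0.14). Between 65 and 70% GC they were alike (-0.14 over 19 peaks against -0.12), and above 80% GC they were slightly higher (-0.15 over 9 peaks against -0.17). Relative to the curve, the KRAB corepressors were lowest (median -0.32, 6 of 6 peaks below it), though 4 of these peaks belong to CBX5. Next came H3K4 genes (-0.16, 8 of 11) and PRC2 (-0.13, 8 of 10). DNA methylation genes (0.08), H3K27 demethylases (0.06) and H3K36 genes (0.03) were above the curve. The lower peaks of CBX8, KDM5A and EZH1, picked for their small p, were at -0.57, -0.71 and -0.70 relative to the curve. At their GC the curve was only -0.14, -0.07 and -0.15, so subtracting it could move such estimates little. TRIM28 was at -0.03 relative to the curve and EZH2 at -0.10.

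The replicates differed from each other at the member peaks by more than counting error. A chi-square of replicate counts over the tested members gave 3.27 per degree of freedom for the guide and 1.96 for the control. Over all 82558 tested peaks it gave 2.89 and 1.64, and counting error alone gives about 1. The log2 ratio of replicate 1 to replicate 2 ran with the GC content of the surrounding 100 kb, with a Spearman correlation over the 119 peaks of -0.42 in the guide libraries and -0.48 in the controls. The correlation with GC of the peak itself was 0.14 and 0.25. These are descriptions over peaks that share the same libraries, and over tested promoter peaks the regional values were -0.53 and -0.39.

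**Figure D4:**
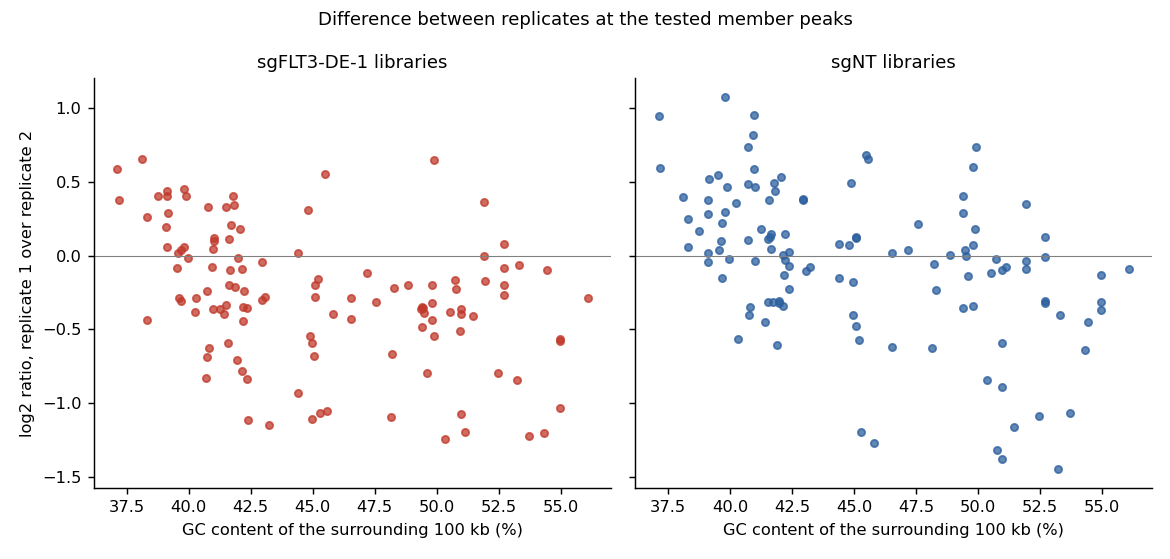
Log2 ratio of replicate 1 to replicate 2 (vertical axis) against GC content of the surrounding 100 kb in percent (horizontal axis) at the 119 tested member peaks, for sgFLT3-DE-1 libraries (left) and sgNT libraries (right). In both groups the points drift downward as regional GC rises, with Spearman correlations of -0.42 and -0.48.

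Split by regional GC, the 40 members in the most AT-rich surroundings had a median log2 fold change of -0.09 with 28 below 0. The 39 in the middle had -0.24 with 34 below 0, and the 40 in the most GC-rich surroundings had -0.24 with 33 below 0. In the same order the median log2 ratio of the sgFLT3-DE-1 replicates was 0.03, -0.32 and -0.36, and that of the sgNT replicates 0.20, -0.06 and -0.13. The plot of replicate ratios thus shows a trend inside each group that moved with the same property as the fold change, and its part in the fold change was not tested. With libraries corrected for regional GC the member median was -0.15.

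Summed over all peaks at a gene's starts, the 44 genes had a median log2 fold change of -0.07, against 0.01 over 12541 tested coding genes. Library scaling was set on the summed table here. The member median was -0.20 without sgFLT3-DE-1 replicate 2, -0.04 without sgFLT3-DE-1 replicate 1 and -0.05 without sgNT replicate 1. Estimates below 0 were found at 31 of 44 genes, against 47.4% of all tested genes, and no gene passed a false discovery rate of 0.05 by edgeR, where 0 of 12541 did. CBX8 alone had an unadjusted p under 0.05 (log2 fold change -0.60, SE 0.227), against 1.01% of genes on the lower side and 0.462% on the higher side. HDAC1 gave -0.50, KMT2B -0.45 and KDM5A -0.54, while ARID1B with its 10 peaks gave -0.07. The sums of TRIM28 and SETDB1 gave 0.02 (SE 0.208) and 0.01 (SE 0.285), on the other side of 0 from their main peaks. The scaling alone moved estimates upward, as genes with a single peak show. CBX8 went from -0.72 by peak to -0.60 here, and HDAC1 from -0.61 to -0.50. Signs are therefore not comparable between the peak and summed scales.

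Other genes of the same pathways had like guide changes. Of 96 further subunits and cofactors, 88 had a peak. Estimates below 0 were found at 151 of their 190 tested peaks (79.5%), against 62.2% of tested promoter peaks and 48.9% of all tested peaks. The median of these 190 peaks was -0.21, and -0.10 relative to the GC curve. Without sgFLT3-DE-1 replicate 1 the median was -0.15, with 132 of 190 below 0, and without sgFLT3-DE-1 replicate 2 it was -0.37. No peak passed a false discovery rate of 0.05 by edgeR, 11 had an unadjusted p under 0.05 on the lower side and 1 on the higher side. The shares were 2.47% and 0.331% over tested promoter peaks, and 1.12% and 0.792% over all tested peaks. The smallest p on the lower side belonged to SMARCD2, a SWI/SNF subunit gene, with 65 and 86 counts with sgFLT3-DE-1 against 91 and 89 counts with sgNT (log2 fold change -0.76, SE 0.262). The 1 higher peak was a minor one at HDAC7, a class IIa deacetylase gene, with 14 and 28 counts against 3 and 9 (1.25, SE 0.564). UHRF1, a cofactor of DNMT1, had 10 and 20 counts against 22 and 23 (-1.11, SE 0.423). The corresponding values of the members were 79.8%, -0.19 and -0.08. In sgNT levels the classes of the further genes had another order than those of the members. H3K36 genes were highest (median 80.5 CPM per kb, against 41.2 among members), then CTCF and cohesin (72.0 against 85.0). KRAB corepressors were lowest (31.9 against 54.7).

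**Figure D5:**
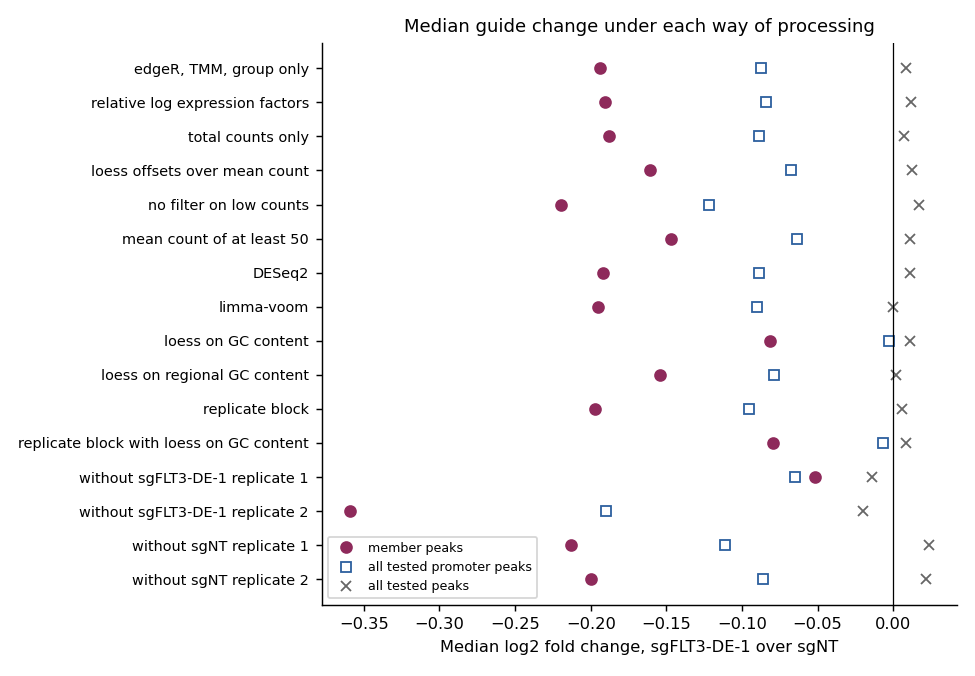
Median log2 fold change of sgFLT3-DE-1 over sgNT (horizontal axis) over member peaks (purple), tested promoter peaks (blue squares) and all tested peaks (grey crosses) under 16 ways of processing (rows). The member median lies between -0.36 and -0.05, and only without sgFLT3-DE-1 replicate 1 does it lie to the right of the promoter median.

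Motif letters were counted in the 300 bases around the middle of each main peak, on both strands, with overlapping matches counted for each motif. GGGCGGG (SP/KLF) was found at 24 of 44 members (54.5%), against 51.5% of 11657 other coding genes' main peaks, and CCAAT (NFY) at 15 (34.1% against 33.5%). CCGGAAG (ETS) was found at 3 members, ASXL1, KDM5A and SETDB1 (6.82% against 16.6%), and TGACGTCA (CREB/ATF) at 3, CBX8, CHD7 and TRIM28 (6.82% against 2.69%). The NRF1 motif and TTTNNCGC (E2F) were each found at 5 members (11.4%), against 9.30% and 9.20%. AAGATGGCG (YY1), the ZNF143 and CTCF motifs and TGTGGTTT (RUNX) were found in this window at 0 members, against 3.02%, 0.429%, 4.72% and 2.29%. Matches elsewhere in a main peak were not counted. Among these were the YY1 letters in the EP300 main peak and GGGCGGG in the CTCF stretch shown above. For ZNF143 only a single fixed spelling was searched. Variants of it, such as the one in the KMT2D stretch, were not counted, so its 0 does not show that such sites are absent. A match is a description of letters and not of a bound site.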

How the data were processed

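ATAC-seq of SEM cells gave a table of read counts in consensus peaks, deposited by the authors as raw counts of hg19 regions, for 2 libraries of each guide. Per the labels and the study's methods, reads were trimmed with cutadapt 1.18 and mapped with Bowtie2 2.2.9, whereas MACS2 2.1.1.20160309, bedtools 2.24.0, SAMtools 1.2, BWA and Trim Galore 0.4.4 stand in the processing notes of the submitters. The supplementary notes describe uniquely mapped proper pairs, peaks called on short fragments, and reproducible peaks merged over conditions. Which fragments were counted, and any shift for the transposase, are not given in the sources used here. Without PCR molecule identifiers, intervals cover counting error only.

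Peaks were assigned to genes with GENCODE release 44 lifted to GRCh37. All peaks were fitted in edgeR 4.0.16 (R 4.3.3) by the quasi-likelihood test with group as the only term, TMM factors and the filterByExpr filter (minimum count 10, minimum total 15), and p-values were adjusted by Benjamini-Hochberg over all 82558 tested peaks. The study's methods and notes name different tests (ABSSeq, and limma-voom with TMM), both without another term. CPM are TMM-normalised. The GC curve was a loess of span 0.3 over tested promoter peaks. Other settings tried were scaling by total counts or by relative log expression, loess over mean count, other filters, DESeq2 1.42.0, limma-voom (limma 3.58.1), GC corrections, other windows, a replicate block and leaving out each library. Scripts were tested on simulated data. The guide was placed by an exact match of its sequence to GRCh37.

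The members and lists were chosen with earlier results of these data known. Named genes were the highest and lowest of each class by sgNT CPM per kb, genes with no peak or the most peaks, the 5 peaks of smallest p in each direction, peaks whose groups did not overlap with unadjusted p under 0.05, the widest and narrowest main peaks, and the main peaks of TRIM28, SETDB1, CBX5, HDAC1, EZH2 and CTCF. Further main peaks (among them KDM6A, NSD2, STAG2 and CHD4) and other peaks of named genes were given for their class after values were seen. From the related lists at most 2 genes per class could be named.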

Additional observations from a re-analysis of the deposited data

How the results depend on the processing

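No member peak passed a false discovery rate of 0.05 with relative log expression factors, total counts, loess offsets over mean count, no filter on low counts, a mean count of at least 50, DESeq2, limma-voom, loess on GC content, loess on regional GC content (chosen after seeing the data) or any library left out. The member median stayed below 0 under all of these, and ranged from -0.36 to -0.052 when 1 library was left out, the latter without sgFLT3-DE-1 replicate 1. It was -0.20 within 500 bases of a start, -0.19 within 2 kb and -0.19 with starts of protein-coding transcripts only.

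The replicate numbers are not said to mark a batch, and the libraries numbered 1 deviated together from their group means (correlation 0.397 over 82558 peaks), with only 2 pairs. With a replicate block, 1 member peak passed, CBX8 (log2 fold change -0.73, adjusted p = 0.0485 by edgeR), and over all tested peaks 18 higher and 75 lower peaks passed. The peak at the guide site, which did not pass without the block, passed with it, where edgeR gave an adjusted p of 8.73e-11 and a log2 fold change of -0.93 (SE 0.119). With the block and loess on GC content these were 12 and 8, and no member passed.

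Over all tested peaks, where 2 higher and 0 lower passed, the higher count was 1 with total counts, with DESeq2 and with loess on GC content, 5 with loess offsets over mean count, with no filter and with loess on regional GC, and 0 at a mean count of at least 50. The lower count was 1 with loess offsets over mean count. Leaving out 1 library gave 0 to 7 higher and 0 to 2 lower peaks. Where a group is left with 1 library, that library is assumed to vary like the other group.

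Among the named peaks, estimates changed sign when 1 library was left out at KMT2D (-0.23 without sgFLT3-DE-1 replicate 2, range to 0.97), EZH2 (0.026 without sgNT replicate 1, range from -0.52), TRIM28 (0.043 without sgNT replicate 2, range from -0.35) and CBX5 (0.033 without sgNT replicate 2, range from -0.45). None of these passed in any setting. Over the tested member peaks, 34 of 119 changed sign without sgFLT3-DE-1 replicate 1 (69 below 0, against 95), 15 of 118 without sgFLT3-DE-1 replicate 2, and 22 of 119 without sgNT replicate 1 and again without sgNT replicate 2. The median of summed counts was -0.20 to -0.044 when 1 library was left out. The causes of these differences were not tested. At 2 libraries per group and a median of 10.7 CPM per tested member peak in sgNT, changes well above the standard errors (0.25 and above) could go uncalled. The peak at the guide site, at 60.1 to 128 CPM, changed by -0.92 (SE 0.263) and did not pass in the main test. The absence of calls among members thus does not exclude changes of that size.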
